A study of Mus musculus with 6 samples.

Results

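Zfp367 and Zfp827 are mouse genes for zinc finger proteins, and the values here describe their transcripts in embryonic stem cells that were given microRNAs of the miR-290 cluster. Both were chosen from the measured difference between the mimic and control arrays, as genes with large falls, so that difference is given below as a description without a test. By the platform's annotation 4 probe sets carry one of these symbols alone, 2 for each gene, among 45101 probe sets and 18193 genes on the array. All 4 passed the filter on low values (a mean log2 intensity of at least 4), which 29167 probe sets and 13815 genes passed in all. The Zfp827 probe set 1442562_at passed only through its control arrays, with a mean log2 of 6.14 there and 3.55 on the mimic arrays.

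The cells were an undifferentiated mouse embryonic stem cell line, named 27H10 in the series title and 27H in the sample titles. Every sample lacks Dicer, the enzyme that cuts microRNA precursors into their mature form, so the control cells carry this deletion too. The 3 control samples received an siRNA aimed at Renilla luciferase, which is not a mouse gene, and the 3 others received synthetic mimics of the miR-290 cluster. RNA was taken 24 h after transfection and read on 1 Affymetrix array per sample, as a linear intensity for each probe set. The labels name 1 line and do not say that the replicates were separate cultures, so every error and p-value covers the spread between arrays alone, and that may be technical. In such bulk samples, fewer cells that make a transcript and less transcript per cell cannot be told apart.

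C2H2 zinc finger proteins fold short loops around zinc ions and often use them to bind DNA, and many act as transcription factors. The human counterpart of Zfp367, ZNF367, was also named ZFF29 and was described in fetal erythroid cells as an activator of a gamma-globin gene. ZNF827, the human counterpart of Zfp827, binds the chromatin remodelling complex NuRD and was found at the telomeres of cells that maintain them without telomerase. A microRNA pairs through its seed, near its 5′ end, with matching sites in messenger RNAs, mostly after the stop codon, and lowers their translation and abundance.

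The agent that separates the groups is a set of such small RNAs, so arms of the cluster that end in 3p are shown with their seeds. The labels name the cluster and not its single mimics or arms. RefSeq (GRCm38.p6) gave 6 mature 3p arms on the plus strand of chromosome 7, and the capitals mark the seed, bases 2 to 8. Of these, 3 share one seed:
mmu-miR-291a-3p: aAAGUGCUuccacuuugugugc
mmu-miR-294-3p: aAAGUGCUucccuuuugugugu
mmu-miR-295-3p: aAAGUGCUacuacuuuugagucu
Among the 6 shown, the others each have a seed of their own, though those of mmu-miR-290a-3p and mmu-miR-291b-3p differ from the shared one in base 8 alone:
mmu-miR-290a-3p: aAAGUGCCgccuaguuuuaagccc
mmu-miR-291b-3p: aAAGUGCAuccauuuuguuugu
mmu-miR-293-3p: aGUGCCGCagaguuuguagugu
The sequences used did not hold mmu-miR-292a-3p, so these 6 arms are not the cluster's full set and seeds are compared among them alone. Sites for these seeds in the Zfp367 and Zfp827 transcripts were not analysed here.

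The control and mimic arrays were alike in overall signal. Median intensities per array lay between 41.7 and 44.9, and the arrays correlated at 0.963 to 0.969 within a group and 0.959 to 0.964 between groups on the log2 scale. The stem cell markers Pou5f1, Nanog, Sox2, Zfp42, Dppa5a, Esrrb and Tdgf1 were bright, with group means from 4126 to 36720 intensity units, and 0 of the 7 passed limma's test, with 1, Esrrb, at an unadjusted p under 0.05, which 24.5% of all genes reached. A prior variance that is fitted robustly as a function of signal (the level-dependent robust prior) called Esrrb higher, as it did 6.2% of all genes. The Dicer1 signal, 1148 ± 25.8 and 1086 ± 58.7 (SD of n = 3 arrays each), checks nothing, since the deletion may not cover its probe set. Of 6 fibroblast markers, the collagen genes Col1a1, Col1a2 and Col3a1 and the matrix gene Postn were below the filter. The surface protein gene Thy1, at 169.9 ± 10.4 and 183.7 ± 26.7 (SD of n = 3 arrays each), and the growth factor receptor gene Pdgfra, with control arrays at 55.8, 37.5 and 37.9 and mimic arrays at 52.0, 30.3 and 28.8, were tested and not called. Over all genes, read through the brightest probe set of each, limma called 1.38% lower and 0.456% higher at a Benjamini-Hochberg adjusted p under 0.05, and the median log2 fold change was −0.01.

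Zfp367 had the steadier fall of the pair. Its probe set 1433623_at read 1891, 1719 and 1943 on the control arrays and 534, 541 and 606 on the mimic arrays. The groups lay far apart: the lowest control value was 2.84 times the highest mimic value, while the highest and lowest arrays of a group differed by 1.13-fold in both groups. Group means were 1851 ± 117 and 560.3 ± 39.4 (SD of n = 3 arrays each), and the log2 fold change was −1.72 ± 0.093 (SE), which leaves 30.3% of the control level. Across the 9 pairs of a mimic and a control array the log2 difference ran from −1.86 to −1.51.

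The other Zfp367 probe set, 1438772_at, did not separate the groups. Control arrays gave 28.5, 48.6 and 24.2, and mimic arrays 16.2, 33.4 and 30.6. Values of the groups overlapped, and the highest and lowest arrays of a group differed by 2.01-fold with the control siRNA and 2.07-fold with the mimics. The mimic array was the lower one in 5 of 9 pairs, and the log2 fold change was −0.34 ± 0.39 (SE). At intensities this low, signal cannot be told from background, so this probe set neither shows nor bounds a change.

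Zfp827 fell by nearly the same factor. Its probe set 1439493_at read 257, 317 and 296 on the control arrays and 80.1, 84.2 and 104 on the mimic arrays. Here too the groups were apart, with the lowest control value 2.46 times the highest mimic value, though arrays of a group differed more, by 1.24-fold and 1.30-fold. Means were 290.03 ± 30.7 and 89.6 ± 13.1 (SD of n = 3 arrays each), and the log2 fold change was −1.70 ± 0.14 (SE), leaving 30.8% of the control level.

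A further Zfp827 probe set, 1442562_at, read 112, 49.0 and 63.9 in the control samples and 18.8, 30.7 and 2.76 in the mimic samples. All 3 mimic arrays were below all 3 control arrays, but the mimic arrays differed among themselves by 11.1-fold. Its log2 fold change of −2.59 ± 0.97 (SE) rests heavily on mimic array 3, where the intensity was 2.76, and was −1.56 without that array. These mimic values lie where signal cannot be told from background, so the size of the fall is not known from this probe set.

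**Figure D1:**
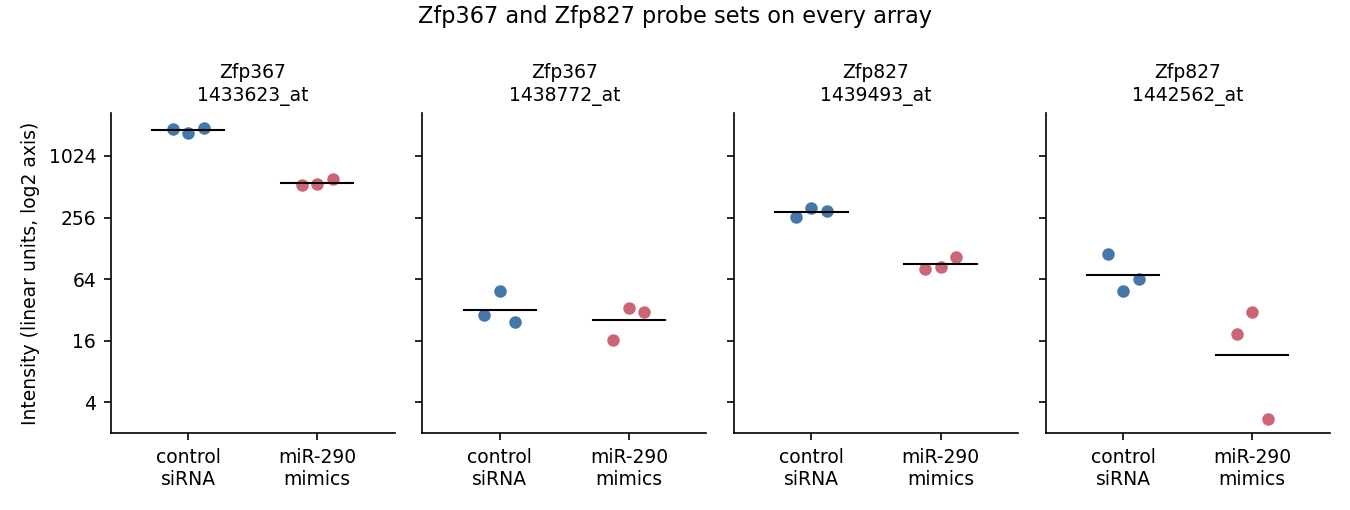
Intensity (linear units on a log2 axis) of the 4 probe sets of Zfp367 and Zfp827 on each of the 3 control siRNA arrays (blue) and 3 miR-290 mimic arrays (red); a point is 1 array and a line is the group's mean on the log2 scale. The groups are apart for 1433623_at, 1439493_at and 1442562_at and overlap for 1438772_at, and a single mimic array of 1442562_at sits at 2.76.

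The groups did not overlap in 3 of the 4 probe sets; among all tested probe sets 15.5% had all mimic arrays below all control arrays, and since the genes were picked for their fall, nothing is read from that comparison. Log2 fold changes of −1.5 or lower were found in 0.754% of all tested probe sets. In order of fall, 1433623_at was number 105 and 1439493_at number 121 of 29167, and number 46 and 51 among 13815 genes through their brightest probe sets.

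The brightest probe sets of the genes fell by nearly the same amount, and both genes were chosen for large falls. Among the control arrays they did not move together. Control array 2 had the lowest Zfp367 value and the highest Zfp827 value, while the mimic arrays stood in the same order for both. The log2 difference between them, Zfp367 minus Zfp827, was 2.88, 2.44 and 2.71 on the control arrays and 2.74, 2.68 and 2.54 on the mimic arrays. Its mean was 2.68 ± 0.22 with the control siRNA and 2.65 ± 0.10 with the mimics (SD of n = 3 arrays each), so the falls differed by 0.02 on the log2 scale, less than the spread between arrays. This says that the mean ratio of these 2 signals was alike in both groups. It says nothing of the transcripts' abundance relative to each other, since probe sets differ in how strongly they bind.

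No choice of processing turned either fall around. Over 14 alternatives the log2 fold change of 1433623_at lay between −1.78 and −1.69, and that of 1439493_at between −1.82 and −1.54. The dim probe sets ranged more widely over their 13 alternatives, 1438772_at from −0.55 to −0.01 and 1442562_at from −3.29 to −1.48.

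**Figure D2:**
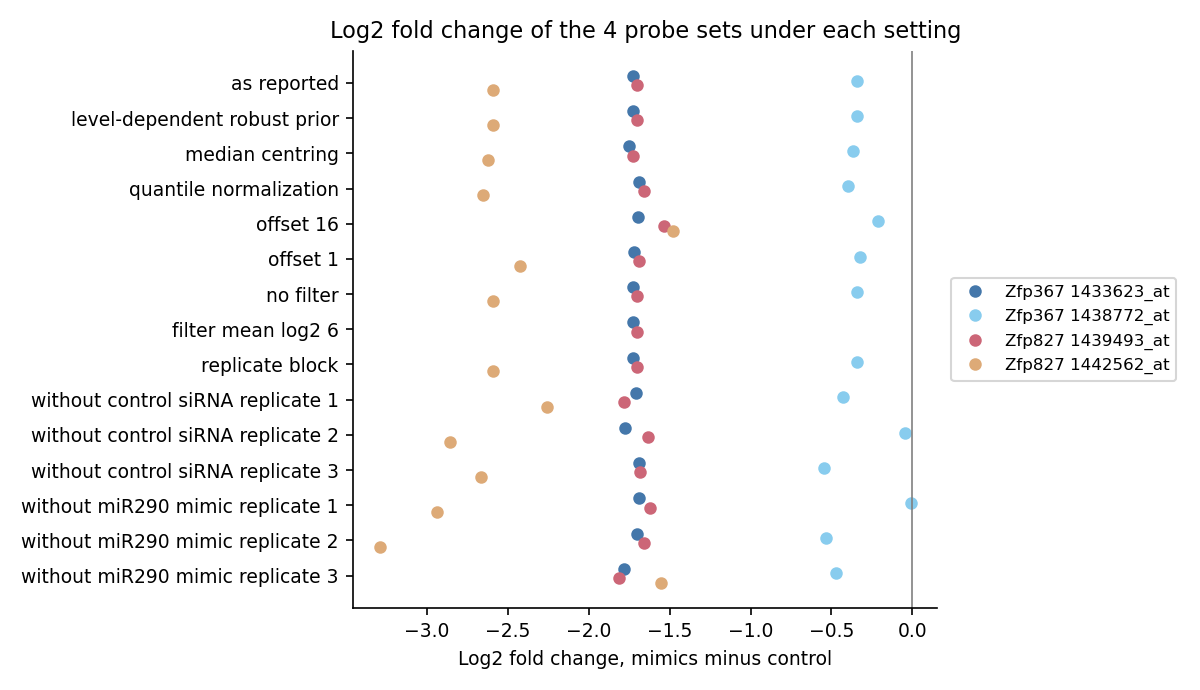
Log2 fold change (mimics minus control, horizontal axis) of the 4 probe sets as reported and under each alternative setting (vertical axis); a point is 1 probe set under 1 setting. Points of 1433623_at and 1439493_at stay between −1.82 and −1.54, those of 1442562_at spread from −3.29 to −1.48, and those of 1438772_at lie between −0.55 and −0.01.

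Both genes stood at the low end of the genes whose symbols start with Zfp, a class named for zinc fingers of several kinds. Of 315 such genes with a tested probe set, Zfp367 had the largest fall and Zfp827 the next, an order that follows from how they were chosen. With the pair included, the 315 were split nearly evenly, with 156 lower and 159 higher on the log2 scale whatever their test. Among the 313 others, limma called 1 lower and 3 higher, which is 0.319% and 0.958% beside the 1.38% and 0.456% of all genes, and the median log2 fold change was 0.01.

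Through its brightest probe set the 1 other Zfp gene that limma called lower was Zfp91, which encodes an atypical ubiquitin ligase with zinc fingers. It read 2945, 2826 and 3192 in the control samples and 2025, 1875 and 1822 with the mimics, with no overlap between the groups (log2 change −0.65 ± 0.087 SE; adjusted p = 0.0458 in limma). Its 2 other tested probe sets gave 0.17 and −0.17 and were not called.

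Higher calls went to Zfp959, Zfp692 and Zfp626. Zfp959 went from 91.4 ± 9.37 to 211 ± 31.5 (SD of n = 3 arrays each; log2 change 1.20 ± 0.14 SE; adjusted p = 0.0433 in limma). Zfp692 went from 181 ± 14.1 to 291 ± 6.34 (0.69, adjusted p = 0.0444 in limma). Zfp626 was dim, at 24.5 ± 2.74 and 46.2 ± 4.34 (0.91, adjusted p = 0.0468 in limma), where signal cannot be told from background, and the level-dependent robust prior did not call it (adjusted p = 0.177).

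All 4 of these calls ended whichever array was left out (adjusted p from 0.119 to 0.154 in limma). With the level-dependent robust prior, Zfp91, Zfp692 and Zfp959 passed in each of the 6 sets of 5 arrays and Zfp626 in none, and this prior called 13 Zfp genes lower and 12 higher of 313 where it called 9.43% and 6.2% of all genes.

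Limma called 2 further Zfp genes lower through a probe set other than their brightest, and 0 higher. Zfp704 went from 275 ± 20.0 to 133 ± 19.4 on that probe set (SD of n = 3 arrays each; log2 change −1.05, adjusted p = 0.0453 in limma), and its brightest gave −0.54 (adjusted p = 0.0866 in limma). Zfp148 went from 926 ± 36.2 to 604 ± 26.6 (−0.62, adjusted p = 0.0444 in limma), and its brightest gave −0.20 (adjusted p = 0.353 in limma). Both of these calls ended whichever array was left out (adjusted p 0.119 to 0.152 in limma). Over all 29167 tested probe sets limma called 276 lower and 100 higher. Of those tested, 505 carry a Zfp symbol, and nothing is read from these 2 calls.

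The genes with the next lowest values, named after these were seen, were Zfp651 and Zfp800. Zfp651 read 52.0 ± 11.0 and 20.3 ± 12.2 (SD of n = 3 arrays each; adjusted p = 0.229 in limma), and its mimic values are too dim for the size of a change to be known. Zfp800 read 407, 441 and 348 on control arrays and 118, 157 and 187 on mimic arrays. Those groups did not overlap, but with a log2 fold change of −1.39 ± 0.20 (SE) the limma adjusted p was 0.0526. The level-dependent robust prior called it lower (adjusted p = 0.000543), and its 4 other tested probe sets, at −1.17, −0.78, −0.54 and 0.48, were not called in limma.

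**Figure D3:**
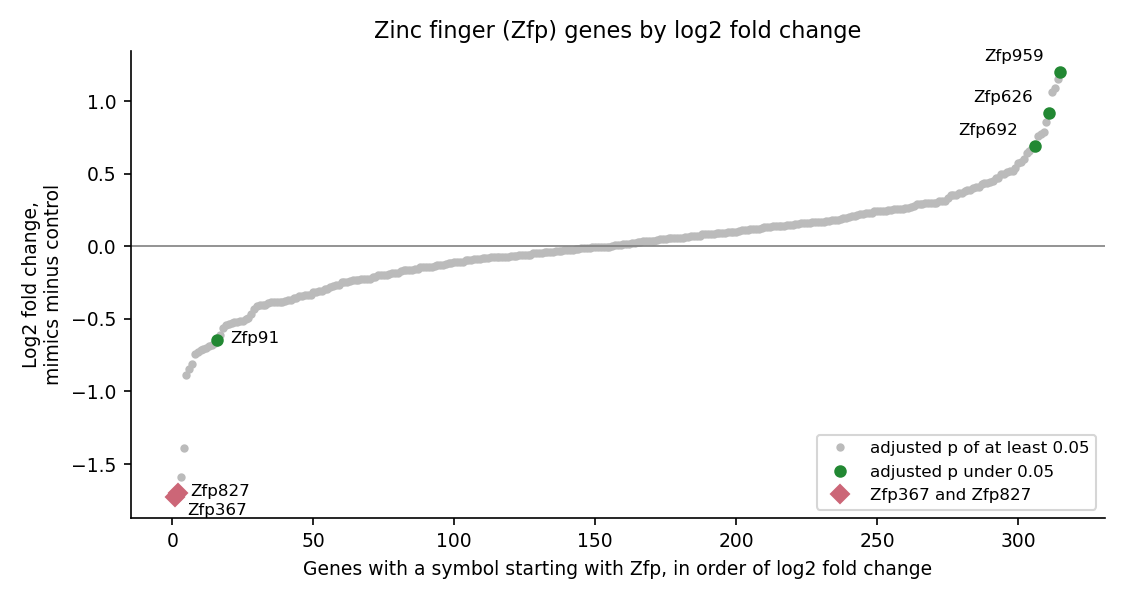
Log2 fold change (mimics minus control, vertical axis) of the 315 tested genes with a symbol starting with Zfp, in order from the largest fall to the largest rise (horizontal axis); a point is 1 gene through its brightest probe set. Zfp367 and Zfp827 (red) are at −1.72 and −1.70, and of the other genes 1 called lower (Zfp91) and 3 called higher (Zfp959, Zfp626, Zfp692) are in green.

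Which other genes shared this profile was read from the distance over the 6 arrays between log2 intensities, each gene taken relative to its own control mean. Each gene was among the other's closest: of 13814 genes, Zfp827 was number 2 from Zfp367, at a distance of 0.351 log2 units, and Zfp367 was number 1 from Zfp827. The median gene lay 3.02 units from Zfp367 and 2.99 from Zfp827. Both genes of the pair were chosen for large falls on these same arrays. That choice brings them near each other and far from most genes, so nothing is read from these distances. The nearest genes named below were picked for their likeness in the same comparison, so their values are descriptions.

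Nearest to Zfp367 was Prr13, a gene for a proline-rich protein, at 0.294 units. It read 3453, 3357 and 3438 on control arrays and 1099, 1169 and 1142 on mimic arrays. That is a tight fall of −1.59 ± 0.068 (SE) on the log2 scale. The next after Zfp827 were Tgfbr2 (−1.76), which encodes a TGF-beta receptor chain, the guanylate-binding protein gene Gbp3 (−1.46) and the cytokine gene Il7 (−1.86).

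Around Zfp827 the closest after Zfp367 were Prr13 again, Gbp2b, Wnt9a and Rpia. Gbp2b, another guanylate-binding protein gene, read 507, 643 and 565 in the control samples and 199, 196 and 203 in the mimic samples. Rpia, which encodes ribose-5-phosphate isomerase of the pentose phosphate pathway, went from 3772 ± 194 to 1363 ± 16.5 (SD of n = 3 arrays each; log2 fold change −1.47). The Wnt ligand gene Wnt9a changed by −1.64. None of these genes has a zinc finger symbol apart from the pair itself.

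**Figure D4:**
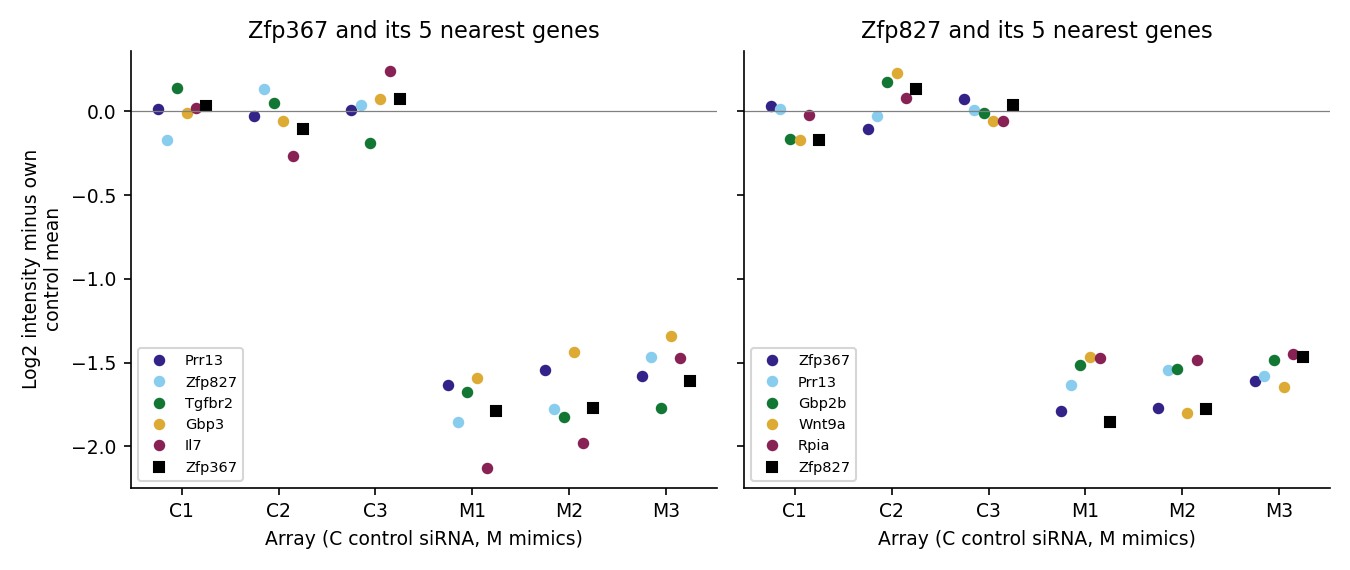
Log2 intensity minus the gene's own control mean (vertical axis) on the control arrays C1 to C3 and the mimic arrays M1 to M3 (horizontal axis) for Zfp367 with its 5 nearest genes (left) and Zfp827 with its 5 nearest (right); a point is 1 gene on 1 array, set side by side for legibility. All mimic points lie well below all control points.

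Of 3 tested genes that flank the pair on the chromosomes, 0 passed in limma, 2 had an unadjusted p under 0.05 (24.5% of all genes), and the level-dependent robust prior called both, Habp4 lower and Lsm6 higher, where it called 15.6% of all genes. Zfp367 lies on mouse chromosome 13 between Slc35d2 and Habp4, and Zfp827 on chromosome 8 between Lsm6 and 1700011L22Rik, by the order of protein-coding genes in RefSeq. The nucleotide sugar transporter gene Slc35d2 read 158, 157 and 174 on control arrays and 184, 193 and 96.3 on mimic arrays (log2 change −0.11 ± 0.29 SE; adjusted p = 0.86 in limma). The groups overlapped, and mimic array 3 was the low one.

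Habp4, which encodes a hyaluronan-binding protein, read 184, 248 and 194 in the control samples and 78.2, 91.5 and 126 in the mimic samples. Its groups did not overlap, yet the log2 fold change of −1.10 ± 0.22 (SE) missed the threshold (adjusted p = 0.0813 in limma). Its dimmer probe sets gave −0.91 and −0.48. Lsm6, part of a ring of proteins on U6 small nuclear RNA and in messenger RNA decay, read 3650, 3360 and 3677 and then 4798, 4784 and 4629 (log2 change 0.41 ± 0.074 SE; adjusted p = 0.0707 in limma). 1700011L22Rik was below the filter.

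The upstream sequences of Zfp367 and Zfp827 are shown because both transcripts fell and RefSeq gives a start site for each. The windows searched reach from 250 bases before the start to 50 after it, on GRCm38.p6, and the bases before the start are printed. Capitals mark matches to CCAAT, the core of the NF-Y site, and to the E2F site TTTCCCGC, on either strand.
Zfp367, chr13:64153200-64153449, minus strand: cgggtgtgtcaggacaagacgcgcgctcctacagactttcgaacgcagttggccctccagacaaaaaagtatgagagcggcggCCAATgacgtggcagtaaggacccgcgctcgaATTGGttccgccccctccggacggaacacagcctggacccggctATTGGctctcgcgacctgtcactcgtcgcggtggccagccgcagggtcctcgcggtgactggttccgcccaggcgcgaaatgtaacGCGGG
Zfp827, chr8:79028187-79028436, plus strand: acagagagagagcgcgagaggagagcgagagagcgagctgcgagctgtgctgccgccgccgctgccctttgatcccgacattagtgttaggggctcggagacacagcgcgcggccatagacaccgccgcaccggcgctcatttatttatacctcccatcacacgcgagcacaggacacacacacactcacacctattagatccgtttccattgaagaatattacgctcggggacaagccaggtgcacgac

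The Zfp367 window held 3 CCAAT matches, which begin 167, 135 and 91 bases before the start, and 1 TTTCCCGC match on the opposite strand that begins 5 bases before the start and runs past it, so only its first letters are printed. Of 32851 such windows in RefSeq, 37.4% held CCAAT at all, 3.37% held at least 3 matches, and 1.07% held TTTCCCGC. The Sp1 core GGGCGG occurred at 2 places in it (35.7% of windows held any), and neither TATAAA nor the other E2F form searched, TTTGGCGC, occurred. A second RefSeq start of Zfp367 has a window with 1 TTTGGCGC (held by 0.514% of windows), 4 GGGCGG and no CCAAT match.

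The Zfp827 window held no match to CCAAT, to either E2F form or to GGGCGG, and 1 to TATAAA, on the opposite strand (13.6% of windows held any). Base composition differed as well: the first Zfp367 window was 64.0% G and C with 36 CpG, and the Zfp827 window 50.7% with 23 CpG, beside medians of 52.7% and 7. The motifs were chosen after the sequences were seen. No matches overlapped each other. A match describes letters only.

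Genes that earlier work ties to ZNF827 or ZNF367 in human cells were tested next, from 5 lists. NuRD joins a nucleosome remodelling ATPase with histone deacetylases. All 15 of its subunit genes were measured. In limma 1 was called lower, 0 higher and 14 did not pass. That is 6.67% called beside 1.83% of all genes, with a median log2 fold change of −0.02.

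The one called lower was Mbd2, the methyl-CpG-binding subunit that can take the place of Mbd3 in the complex. It read 1178, 1135 and 1242 on control arrays and 719, 780 and 684 on mimic arrays, with no overlap (log2 change −0.70 ± 0.086 SE; adjusted p = 0.0433 in limma). The call ended whichever array was left out (adjusted p 0.126 to 0.152 in limma) but passed in all 6 such sets with the level-dependent robust prior. Another Mbd2 probe set gave −0.43 and was not called.

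The histone chaperone subunits Rbbp7 (18123 ± 490 and 18424 ± 546) and Rbbp4 (17099 ± 434 and 17111 ± 502; SD of n = 3 arrays each), the brightest of the list, differed by 0.02 and 0.00 on the log2 scale (adjusted p = 0.877 and 0.996 in limma). The remodelling ATPase gene Chd4 gave −0.02, and Mbd3 gave 0.31 (adjusted p = 0.894 and 0.156 in limma). The level-dependent robust prior called 3 of the 15 beside 15.6% of all genes, Mbd2 and Mta3 lower and Mbd3 higher (adjusted p = 0.000291, 0.0219 and 0.02). When 1 array was left out, the Mta3 call held in 3 of 6 sets and the Mbd3 call in 2 (adjusted p up to 0.0727 and 0.079 with that prior). Mta3, a metastasis-associated family subunit, gave −0.30 (adjusted p = 0.198 in limma).

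Of 5 orphan nuclear receptor genes of the NR2C and NR2F groups, which bind variant telomere repeats in the cells where ZNF827 was studied, 4 were tested and 0 passed in limma through their brightest probe sets. At an unadjusted p under 0.05 there were 3 of the 4, beside 24.5% of all genes, and the level-dependent robust prior called 2 lower, Nr2c2 and Nr2f2, beside 9.43%. The median was −0.40. Nr2c2, the brightest, went from 1943 ± 80.8 to 1541 ± 46.3 (SD of n = 3 arrays each; log2 change −0.33 ± 0.073 SE; adjusted p = 0.0921 in limma), while its 3 dimmer probe sets gave 0.05 to 0.23. Nr2c1 gave −0.47 and Nr2f6 0.06 (adjusted p = 0.173 and 0.856 in limma).

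Nr2f2, also known as COUP-TFII, depended on the probe set. The brightest read 185, 261 and 218 in the control samples and 126, 119 and 136 in the mimic samples (log2 change −0.79 ± 0.15 SE; adjusted p = 0.0725 in limma). A nearly equal one read 238, 229 and 235 and then 83.5, 96.3 and 117, and fell by 1.26 on the log2 scale (adjusted p = 0.039 in limma). This call, too, ended whichever array was left out. The groups did not overlap on either, and 3 dimmer probe sets, at −0.91, −0.90 and 0.79, were not called.

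Of 11 genes of telomere upkeep, 10 were tested and 0 passed in limma, and the median log2 fold change was 0.13. An unadjusted limma p under 0.05 was reached by 2 of the 10, near the 24.5% of all genes. Dkc1, the pseudouridine synthase that is part of telomerase, was the brightest at 5395 ± 89.1 and 6745 ± 329 (SD of n = 3 arrays each; log2 change 0.32 ± 0.073 SE; adjusted p = 0.0994 in limma), and it was the 1 gene of the list that the level-dependent robust prior called, as higher (6.2% of all genes). Daxx, a chaperone for histone H3.3, differed by −0.05, and its partner Atrx by 0.08 (adjusted p = 0.794 and 0.672 in limma). Tert, the catalytic subunit of telomerase, gave 0.01, and the telomere-binding genes Terf1 and Terf2 gave 0.22 and −0.14. Other tested probe sets gave 0.45 and 0.06 for Terf1, −0.28 and 0.22 for Terf2, and 0.46 and 0.15 for Dkc1. None of these was called in limma.

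Genes of ATR signalling and of the single-strand binding complex RPA moved little. Of 11, 10 were tested, and 0 passed in limma and by the level-dependent robust prior alike. An unadjusted limma p under 0.05 was reached by 1 of the 10, beside 24.5% of all genes. With so few genes no difference is read from that share. Log2 fold changes lay between −0.01 and 0.19 with a median of 0.09. The brightest were Rpa1, at 17167 ± 715 and 18366 ± 455, and Hnrnpk, at 16005 ± 760.5 and 17103 ± 1334 (SD of n = 3 arrays each; adjusted p = 0.502 and 0.615 in limma).

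Globin and erythroid genes, listed because of the fetal globin gene that ZFF29 activates, were mostly near the floor. Of 14, 3 had no probe set and 3 were below the filter. In limma 0 of the 8 tested passed, with 4 at an unadjusted p under 0.05 beside 24.5% of all genes, and their median was −0.26. The brightest were Bcl11a, a repressor of fetal globin genes, at 458 ± 98.6 and 385 ± 66.0, and Gata1, at 118 ± 14.2 and 85.7 ± 17.7 (SD of n = 3 arrays each; adjusted p = 0.566 and 0.248 in limma). The embryonic globin gene Hbb-y, at 18.2 ± 7.06 and 39.1 ± 9.19, and the erythroid factor gene Klf1, at 16.8 ± 10.4 and 55.4 ± 8.58, had higher mimic values but did not pass (adjusted p = 0.151 and 0.133 in limma). The level-dependent robust prior called Klf1 higher at an adjusted p of 0.0496, as it did 6.2% of all genes. When 1 array was left out, that call held in 1 of 6 sets (adjusted p up to 0.158 with the same prior). Tal1, also on the list, went the other way, with a log2 change of −1.05 ± 0.33 (SE) and no overlap between the groups. It did not pass either (adjusted p = 0.172 in limma and 0.162 with that prior). The control values of Hbb-y and Klf1 and the mimic values of Tal1 lie where signal cannot be told from background.

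**Figure D5:**
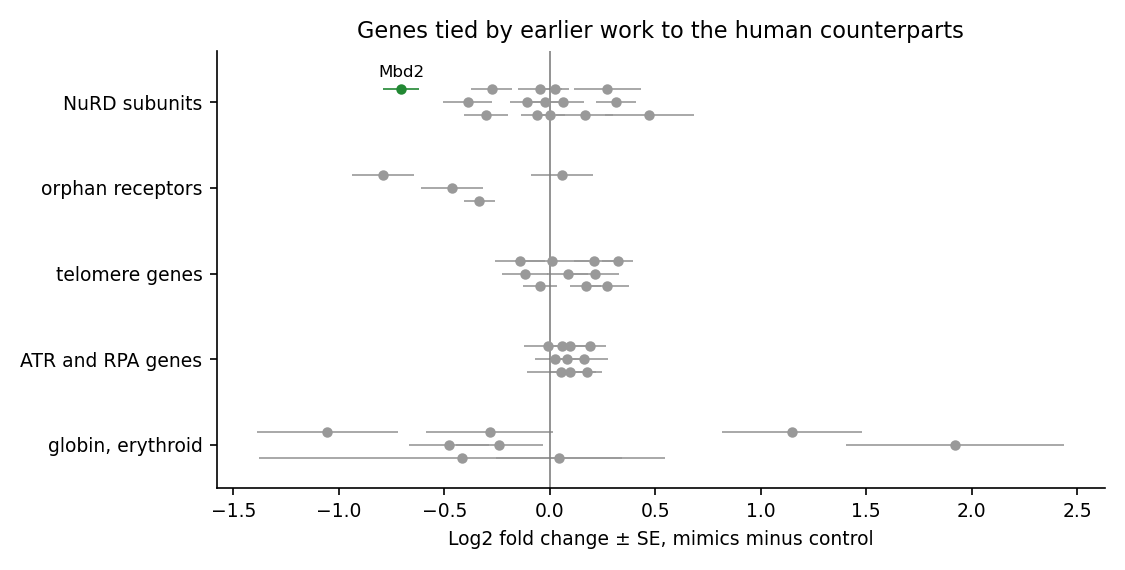
Log2 fold change with its SE (mimics minus control, horizontal axis) of the tested genes of 5 lists (vertical axis), each through its brightest probe set; a point is 1 gene, stacked for legibility, and green marks a limma adjusted p under 0.05. Mbd2 at −0.70 is the 1 gene in green, and the ATR and RPA genes lie within −0.01 to 0.19.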

How the data were processed

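Total RNA of 6 samples was labelled as biotinylated cRNA and hybridised to Affymetrix arrays, per the labels' protocols. Each deposited value is a linear intensity of 1 probe set on 1 array, and the mean of each array without its lowest and highest 2% was 500.004, which shows a common scaling by the authors. The submitters' processing notes name GCRMA, whose usual output is on a log2 scale and not scaled in this way, so which tool made the values is not settled, nor how much background a low intensity holds. A version and a genome build are not given in the sources used here.

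Groups and replicate numbers came from the sample titles. Intensities were log2-transformed without offset or further normalization, because they proved linear. After 64 control probe sets and 15870 with a mean log2 under 4 were left out, limma 3.58.1 (R 4.3.3; lmFit, eBayes, 2-sided) was fitted to 29167 probe sets, with Benjamini-Hochberg adjustment over all and 0.05 as threshold. It was first tested on simulated data. The platform table gave 34958 probe sets 1 symbol, 932 several and left 9211 unlisted, unnamed here. A gene stands for its brightest probe set.

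The genes and lists were chosen with earlier results of these data known. Named were all probe sets of the pair, each list's members past the threshold and its 2 brightest, up to 6 Zfp genes per direction, the 5 nearest genes and the flanking ones, plus examples named beyond this rule after their values were seen. C2H2 genes were to be found from protein sequences, which were not used here, so symbols starting with Zfp stood in. Sequences are RefSeq's (GRCm38.p6). Same-numbered arrays did not deviate together (r between −0.01 and 0.02), so numbers were not taken as pairs.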

Additional observations from a re-analysis of the deposited data

How the results depend on the processing

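The log2 fold changes of the 4 probe sets of Zfp367 and Zfp827 stayed negative and moved by less than 1 SD between arrays under every alternative that kept them; the dim ones drop out with a filter at a mean log2 of 6. Leaving out 1 array at a time gave −1.78 to −1.69 and −0.55 to −0.01 for Zfp367, and −1.82 to −1.62 and −3.29 to −1.56 for Zfp827.

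Counts of calls depended strongly on the settings. Of all probe sets limma called 376, and 3293 with the level-dependent robust prior, 2373 with the filter at 6, 628 with an offset of 16, 207 with median centring and 0 with no filter. With the replicate number as a block it called 0, also of every list. Without 1 array at a time it called 0 to 1 in all. Leaving out 1 array with that prior, a combination added after seeing the data, gave 1971 to 2844. Of the Zfp genes beside the pair 4 were called, 25 with the prior, 27 with the filter at 6, 7 when a gene's probe sets were averaged, 2 with median centring and 0 with no filter; without 1 array it was 0, and 13 to 23 with the prior. Of NuRD genes 1 was called, 3 with the prior and 0 with no filter; without 1 array it was 0, and 1 to 3 with the prior. The orphan receptors had 0 calls, 2 with the prior or the filter at 6, and 2 to 3 with the prior and 1 array left out. Telomere genes had 0, 1 with the prior or that filter, and 1 to 2 with the prior and 1 array left out. The ATR and RPA genes had 0, and 0 to 1 with the prior and 1 array left out; the erythroid genes had 0, 1 with the prior, and 0 to 1 with the prior and 1 array left out. Without 1 array and without the prior these 4 lists had 0. The cause of these shifts was not tested. The 3 arrays a group limit precision, and low intensities may hold background only.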
